A study of Mus musculus with 18 samples.

Results

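The loops and domains described here surround Kit, Gata2 and Zfpm1 in mouse erythroblasts. Their members were all loops of the deposited Micro-C loop list with at least 1 anchor overlapping, by at least 1 bp, chr5:75700000-76150000 (Kit), chr6:88000000-88250000 (Gata2) or chr8:124750000-124900000 (Zfpm1), together with the listed domains that overlap these windows. There were 50 such loops among the 20926 of the list: 15 at Kit, 21 at Gata2 and 14 at Zfpm1. The windows were 450, 250 and 150 kb long.

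The study made 18 Micro-C libraries from G1E-ER4 cells of an LDB1-AID subline, 9 untreated and 9 treated with auxin for 4 h, so every sample carries the degron-tagged LDB1. Per the study's title, the question was how LDB1 joins several enhancers into networks. G1E-ER4 is an erythroblast line that lacks its own GATA1 and carries GATA1 fused to a hormone-binding domain. Whether the hormone was added is not given in the sources used here, and the labels name neither a clone of the subline nor a culture behind each sample. The loop and domain lists hold 1 entry per loop or domain for the whole series and no value per sample, so the untreated and auxin-treated cells could not be compared, and no value has replicates.

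Kit encodes the receptor tyrosine kinase for stem cell factor, on which early erythroid progenitors depend. Gata2 encodes the GATA factor of haematopoietic stem and progenitor cells, and Zfpm1 encodes FOG1, a zinc finger cofactor of GATA1. In erythroid maturation GATA1 replaces GATA2 at shared sites, a change known as the GATA switch, after which Kit and Gata2 are generally silenced while FOG1 acts with GATA1. LDB1 has no DNA-binding domain of its own and is brought to DNA through LMO2 by GATA1 and TAL1, and its dimerisation can hold distant sites together.

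The promoter sequences of the 3 genes are shown because GATA and E-box motifs are the sites through which the LDB1 complex usually reaches DNA. They are the 250 bases before each start in RefSeq (build GRCm38.p6), and all 3 genes matched by symbol. RefSeq gives a pair of starts for Kit that lie 4 bases apart, of which the first is shown, and an upstream and a downstream start for Gata2. Capitals mark matches to the GC box GGGCGG and to CACCC on either strand. These coordinates belong to GRCm38.p6 and cannot be set beside the mm9 coordinates of the loops, even where the numbers look alike.
Kit, chr5:75574737-75574986, + strand: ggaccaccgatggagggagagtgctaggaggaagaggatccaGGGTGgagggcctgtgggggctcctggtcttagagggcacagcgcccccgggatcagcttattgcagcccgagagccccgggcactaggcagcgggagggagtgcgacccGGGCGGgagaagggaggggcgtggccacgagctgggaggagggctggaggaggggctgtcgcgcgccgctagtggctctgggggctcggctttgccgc
Gata2 upstream start, chr6:88193641-88193890, + strand: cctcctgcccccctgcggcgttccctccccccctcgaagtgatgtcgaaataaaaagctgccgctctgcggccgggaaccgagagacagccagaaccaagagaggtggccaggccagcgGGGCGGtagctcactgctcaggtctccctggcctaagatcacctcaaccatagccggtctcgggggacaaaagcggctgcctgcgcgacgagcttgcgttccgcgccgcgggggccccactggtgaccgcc
Gata2 downstream start, chr6:88198414-88198663, + strand: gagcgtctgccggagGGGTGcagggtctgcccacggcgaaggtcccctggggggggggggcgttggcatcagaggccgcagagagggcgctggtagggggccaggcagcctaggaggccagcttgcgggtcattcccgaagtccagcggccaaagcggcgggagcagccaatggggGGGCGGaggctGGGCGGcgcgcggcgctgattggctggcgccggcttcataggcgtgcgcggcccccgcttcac
Zfpm1, chr8:122281891-122282140, + strand: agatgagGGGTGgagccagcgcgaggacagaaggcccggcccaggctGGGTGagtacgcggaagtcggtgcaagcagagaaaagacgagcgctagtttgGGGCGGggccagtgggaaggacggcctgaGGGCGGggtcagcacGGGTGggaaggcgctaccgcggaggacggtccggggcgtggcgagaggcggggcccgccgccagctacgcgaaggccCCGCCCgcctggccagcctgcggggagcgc

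No GATA motif (AGATAA, where the first base may also be T and the last also G, on either strand) and no E-box (CANNTG, which reads alike on both strands) matched any of these windows, the other Kit start included. Of the 32851 promoters in the table, 26.5% held such a GATA motif and 66.2% an E-box. The GC box matched 1 time at Kit, 1 time at the upstream and 2 times at the downstream Gata2 start, and 3 times at Zfpm1, and was present in 32.7% of all promoters. CACCC matched 1 time at Kit, 1 time at the downstream Gata2 start and 3 times at Zfpm1, and was present in 52.0% of all promoters. The G and C content was 70.8% at Kit, 67.2 and 74% at the Gata2 starts and 73.2% at Zfpm1, against a mean of 53.2% over the table. No start site was placed among the loop anchors, since no mm9 annotation was used here. In the GRCm38.p6 gene order, Kit lies between Pdgfra and Kdr, which encode other receptor tyrosine kinases, Gata2 lies between Rpn1 and Dnajb8, and Zfpm1 lies between Zfp469 and Trhr2.

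A loop joins a left and a right anchor, each written here as 10 kb, and its span is the distance between the anchor midpoints. Overlapping anchors of the whole list were merged into anchor regions, and regions are called joined where at least 1 loop links them. The loop density was 33.3 loops per Mb of window at Kit, 84.0 at Gata2 and 93.3 at Zfpm1. To place these counts, the chromosomes were cut into tiles as long as each window. Of 5847 tiles of 450 kb, 10.9% held at least the 15 loops of the Kit window, with a median of 2 loops. Of 10534 tiles of 250 kb, 45 (0.427%) held at least the 21 loops of the Gata2 window, with a median of 1 loop. Of 17564 tiles of 150 kb, 159 (0.905%) held at least the 14 loops of the Zfpm1 window, with a median of 0 loops. Tiles without any loop made up 35.2, 44.0 and 51.3% of the 450, 250 and 150 kb tiles. Gata2 and Zfpm1 were thus denser in loops than all but a small share of tiles, and Kit less extreme for its length. This places the windows in the list and is no test, since the windows were laid around known genes.

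**Figure D1:**
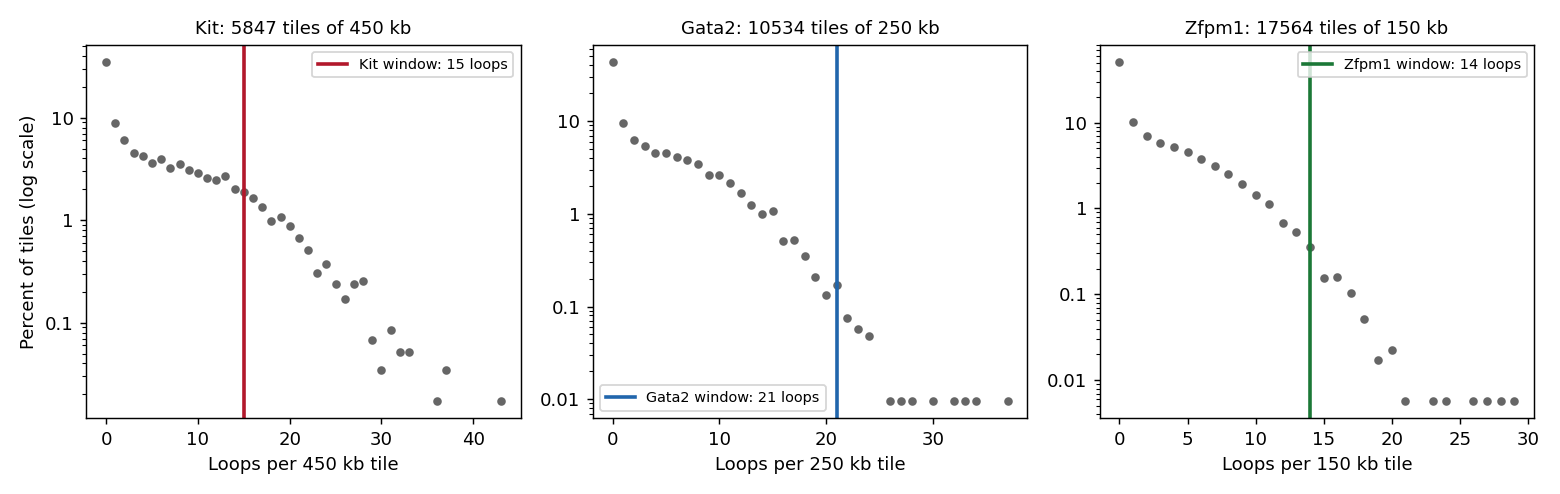
Percent of tiles (log axis) by the number of loops with an anchor in the tile, for tiles of 450, 250 and 150 kb over all chromosomes of the list; the coloured line is the window of each gene. The lines for Gata2 at 21 loops and Zfpm1 at 14 loops stand far out in the tail. The points at or to the right of these lines together hold 0.427 and 0.905% of tiles. Those at or to the right of the Kit line at 15 loops hold 10.9%.

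At Kit, 5 anchor regions were all joined to each other, which made the locus a closed mesh of contacts. From low to high coordinates the regions were chr5:75600001-75620000, chr5:75760001-75780000, chr5:75967501-75980000, chr5:76127501-76150000 and chr5:76237501-76257500. All 10 pairs of these regions were joined, by 13 loops in all, and the outermost regions lay 637.5 kb apart. The inner 3 regions lay in the Kit window, so 11 of the 13 loops belonged to it, and the remaining 2 joined the outermost regions directly. In the whole list, 7 groups of 5 regions were all joined in this way and none was larger. These groups held 35 of the 20368 regions (0.172%). The Kit group was the second longest of the 7, whose extents ran from 135 to 1478 kb. The group depends on merging overlapping anchors: with identical anchors only, the largest group all joined at Kit had 3 regions, where the list reached 4, and without the loops of the 10 kb grid it had 4. The number of groups of 5 in the list also moved, to 18 with anchors within 10 kb merged and to 2 without the 10 kb grid. Whether these contacts occur together in 1 cell cannot be read from the list.

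The 5 Kit regions lay at unequal steps. Neighbouring regions were 160, 204, 165 and 109 kb apart. The region at chr5:75967501-75980000 was joined to the 4 others over 364 and 204 kb towards lower coordinates and 165 and 274 kb towards higher coordinates. It had 6 loops, the most of any region inside the window, 4 to lower and 2 to higher coordinates. Of all regions, 4.01% had at least as many. The lowest region of the group had 6 loops, all to higher coordinates, and the highest had 7, all to lower coordinates. The other two had 5 loops each, and looped both ways. The ends of the mesh were therefore one-sided and its inner regions two-sided.

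Loops at Kit outside the mesh were few. A loop of 115 kb joined chr5:75852501-75862500 to the region at chr5:75967501-75980000. A loop of 300 kb joined chr5:75670001-75680000 to that same region. A loop of 190 kb joined chr5:76050001-76060000 to the highest region of the mesh. These 3 outer anchors each had 1 loop. The fourth was the longest of the locus, 1425 kb, from chr5:74517501-74527500 to chr5:75942501-75952500. It shared no anchor with any other loop, and 98.1% of all loops were shorter. The remaining 14 loops of the window and 2 others formed a network of 8 regions that reached no further than the mesh itself, from 75600001 to 76257500. With anchors within 10 kb merged, the Kit network had 19 regions, so this limit holds for merging at 1 bp of overlap.

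The mesh and the domains of the Kit window met at several points. A domain here is a listed topologically associating domain, a stretch of chromosome with more contacts inside it than across its ends. A domain of 217 kb ended at 75978333 and a domain of 270 kb started at 75972501, so that their overlap lay inside the region at chr5:75967501-75980000. The first of these began at 75761667, inside the second region of the mesh, and the other ended at 76242500, inside the highest. The boundaries at 75761666, 75972500 and 75978333 are not at multiples of 5 kb, unlike the other boundaries in the 3 windows. How their positions were set is not given in the sources used here. A corner loop is a loop whose anchor midpoints lie within 20 kb of the start and of the end of a domain. The domains of 217 and 270 kb each had 1 corner loop: the loops of 200 kb and 275 kb that meet at chr5:75967501-75980000. The lowest region and chr5:76127501-76150000 had no boundary within 20 kb. The other 3 domains measured 197, 380 and 665 kb, and the longest of them, chr5:75575001-76240000, held 9 of the 15 loops.

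All 15 Kit loops spanned at least 1 domain boundary, that is, a boundary between their anchor midpoints, and the number spanned ran from 1 to 9. In the whole list 44.7% of loops did so. The loops of 150, 160, 162 and 200 kb, and that of 115 kb to chr5:75967501-75980000, spanned only 1. In each case that boundary lay within 20 kb of a region at an end of the loop. Both anchor midpoints lay inside a single domain for 10 of the 15 loops (66.7%, 95% exact interval 38.4 to 88.2%), compared with 86.5% of all loops. Of the 5 loops outside any domain, 1 was the loop of 1425 kb. The other 4 ended in the highest region of the mesh, with a right anchor midpoint at most 2.5 kb from a listed boundary. Intervals on shares of loops cover the counting of listed loops only, and loops of 1 locus share anchors, so they are narrower than such dependent loops warrant.

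**Figure D2:**
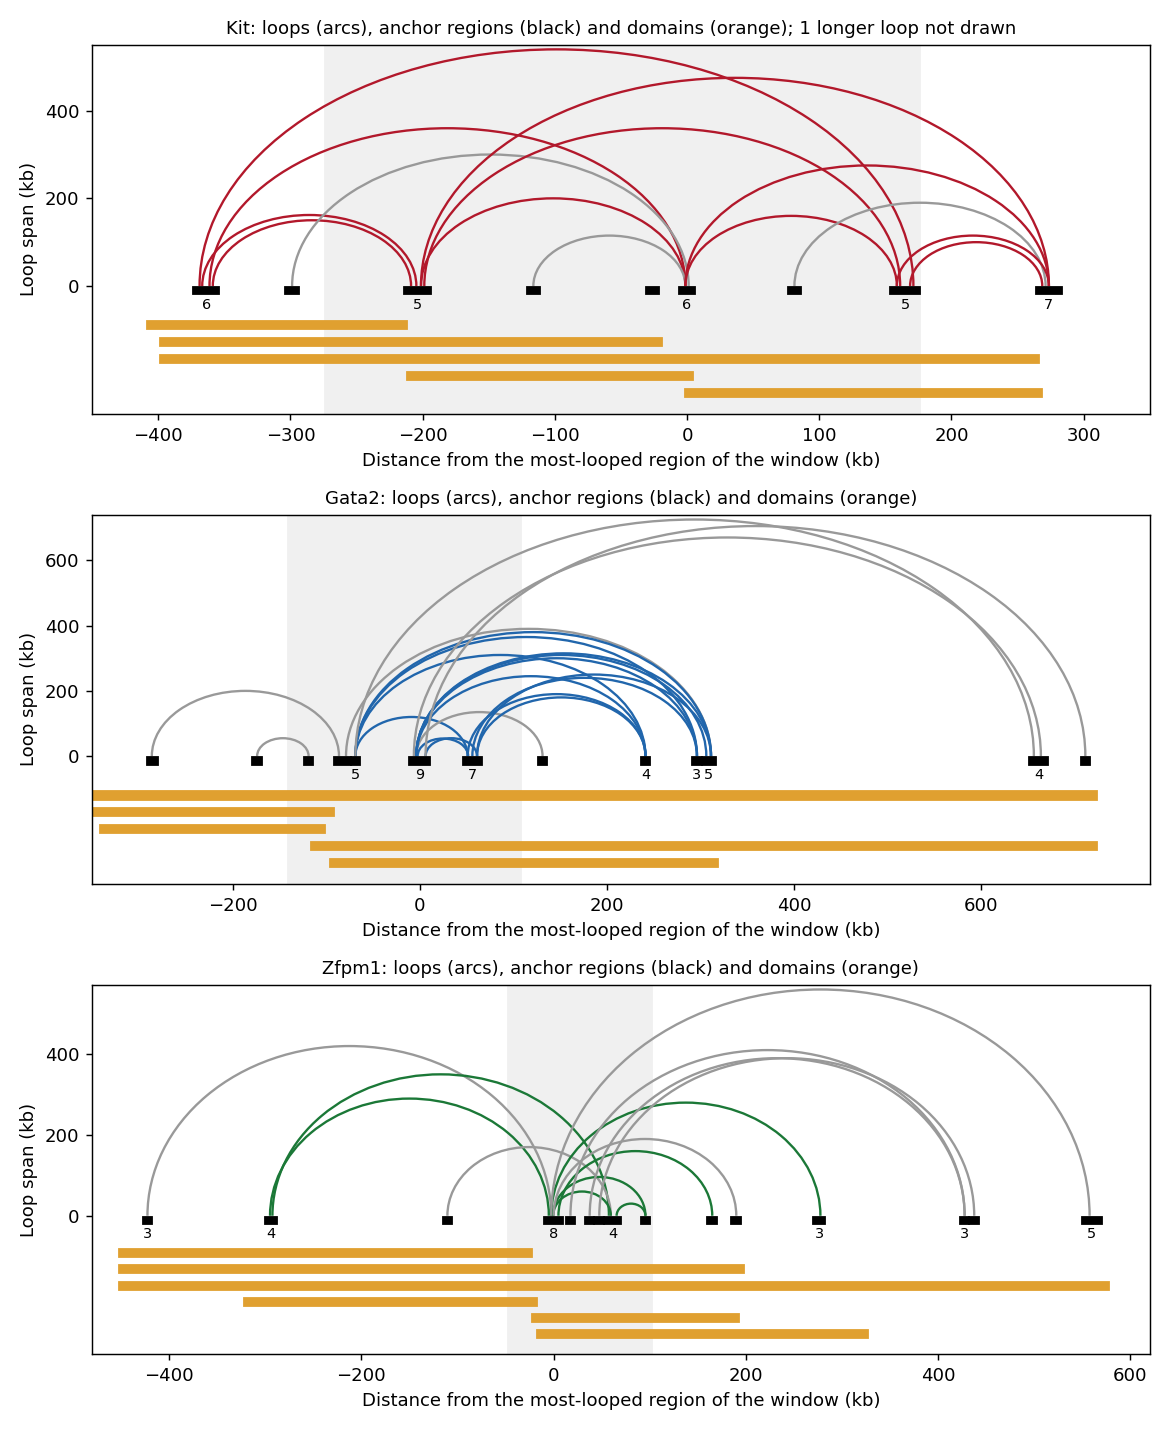
Loops of the Kit, Gata2 and Zfpm1 windows as arcs whose height is the span (kb), against the distance from the most-looped region of each window (kb); coloured arcs belong to a closed group of 3 regions, grey arcs do not, black boxes are anchor regions with the number of loops of those with 3 or more, orange bars are domains (drawn up to the panel edge) and the grey band is the window. Kit shows a mesh of 5 regions (its pair 637.5 kb apart has no anchor in the window and is not drawn, nor is the loop of 1425 kb), Gata2 a fan of arcs to higher coordinates, and Zfpm1 a star around 1 region with 8 loops.

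At Gata2 the loops formed a block between neighbouring regions in the window and regions at higher coordinates. The window held 3 regions with 3 or more loops, chr6:88067501-88077500, chr6:88130001-88152500 and chr6:88187501-88207500. All 3 were joined to each of chr6:88377501-88387500, chr6:88432501-88442500 and chr6:88442501-88457500, which lie above the window. These 9 pairs were joined by 11 loops with spans of 180 to 380 kb. The regions chr6:88432501-88442500 and chr6:88442501-88457500 touch without overlap and were kept separate. Unless other merging is named, counts of regions, pairs, partners and closed groups at this locus take them so. Taken as a single region, they would give fewer. Of the 21 loops, 16 left the window towards higher coordinates, 2 towards lower coordinates and 3 stayed within it.

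The region chr6:88130001-88152500 had 9 loops to 7 partner regions, all at higher coordinates, with spans of 54 to 705 kb. Only 115 regions of the list (0.565%) had at least as many loops. With identical anchors only, the most-looped anchor of the window had 5. The region chr6:88187501-88207500 had 7 loops, 3 to lower and 4 to higher coordinates, and chr6:88067501-88077500 had 5, all to higher coordinates. On the far side, chr6:88377501-88387500 had 4 loops, chr6:88432501-88442500 had 3 and chr6:88442501-88457500 had 5, all to lower coordinates. Each of these far regions took loops from this locus alone.

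Of the 3 Gata2 window regions with 3 or more loops, the first and second had partners in common but no loop between them. All 5 partners of chr6:88067501-88077500 were also partners of chr6:88130001-88152500, while these regions, 68.8 kb apart, were not joined. Of the 33324 pairs of regions with any partner in common, 22 (0.0660%) had at least 5. The 5 partners include the touching regions chr6:88432501-88442500 and chr6:88442501-88457500 as separate ones. This share was not computed with other merging of anchors. The far regions, 12.5 to 67.5 kb from each other, were not joined among themselves either. Loops of 54 and 55 kb were listed at the locus, joining chr6:88130001-88152500 to chr6:88187501-88207500, so spans of that size could be listed here. A pair 12.5 kb apart could not be judged, because the shortest loop of the list spanned 18 kb.

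The third of these window regions, chr6:88187501-88207500, was joined to the first by 1 loop of 120 kb and to the second by the 2 loops of 54 and 55 kb. It therefore took part in all 6 closed groups of 3 at the locus, each made of this region, 1 of the other window regions and 1 far region. No group of 4 regions at Gata2 was all joined. Among the 7 regions of the locus with 3 or more loops, 13 of 21 pairs were joined, compared with 10 of 10 at Kit.

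Long Gata2 loops reached past this block. A loop of 725 kb joined chr6:88067501-88077500 and a loop of 670 kb joined chr6:88130001-88152500 to the same region, chr6:88792501-88812500. A loop of 705 kb joined chr6:88130001-88152500 to chr6:88847501-88857500. The low side of the window was thinner. A loop of 200 kb joined chr6:87850001-87862000 to chr6:88050001-88067500, which was in turn joined to chr6:88442501-88457500 over 390 kb. The region chr6:88050001-88067500 touches chr6:88067501-88077500 without overlap and was kept separate from it. A loop of 55 kb between chr6:87962501-87972500 and chr6:88017501-88027500 shared no anchor with another loop. The last of the 21, of 135 kb, joined chr6:88130001-88152500 to chr6:88267501-88277500. With the exception of the isolated loop, all belonged to a network of 19 regions and 28 loops. In the list, 4.65% of networks were at least as large. With anchors within 10 kb merged, the Gata2 network had 53 regions.

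A single domain framed the Gata2 block. The domain chr6:88045001-88460000, of 415 kb, held no other domain and held 16 of the 21 loops of the window. With 17 loops in all it had 41.0 loops per Mb. Its corner loop was the one of 390 kb from chr6:88050001-88067500. Only 4 of the 21 loops spanned a boundary (19.0%, 95% exact interval 5.45 to 41.9%), these being the loop of 200 kb and those of 670, 705 and 725 kb. All 21 lay inside some domain: 3 of the other 5 were held by a domain of 840 kb, 1 by a domain of 240 kb and 1 by none smaller than the domain of 1850 kb. The remaining domain, chr6:87640001-88050000 of 410 kb, held 1 loop of the window, the same one as the domain of 240 kb. The 4 boundaries in the window, from 88025000 to 88050000, all lay below chr6:88067501-88077500, and each was spanned by 1 loop of the window.

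**Figure D3:**
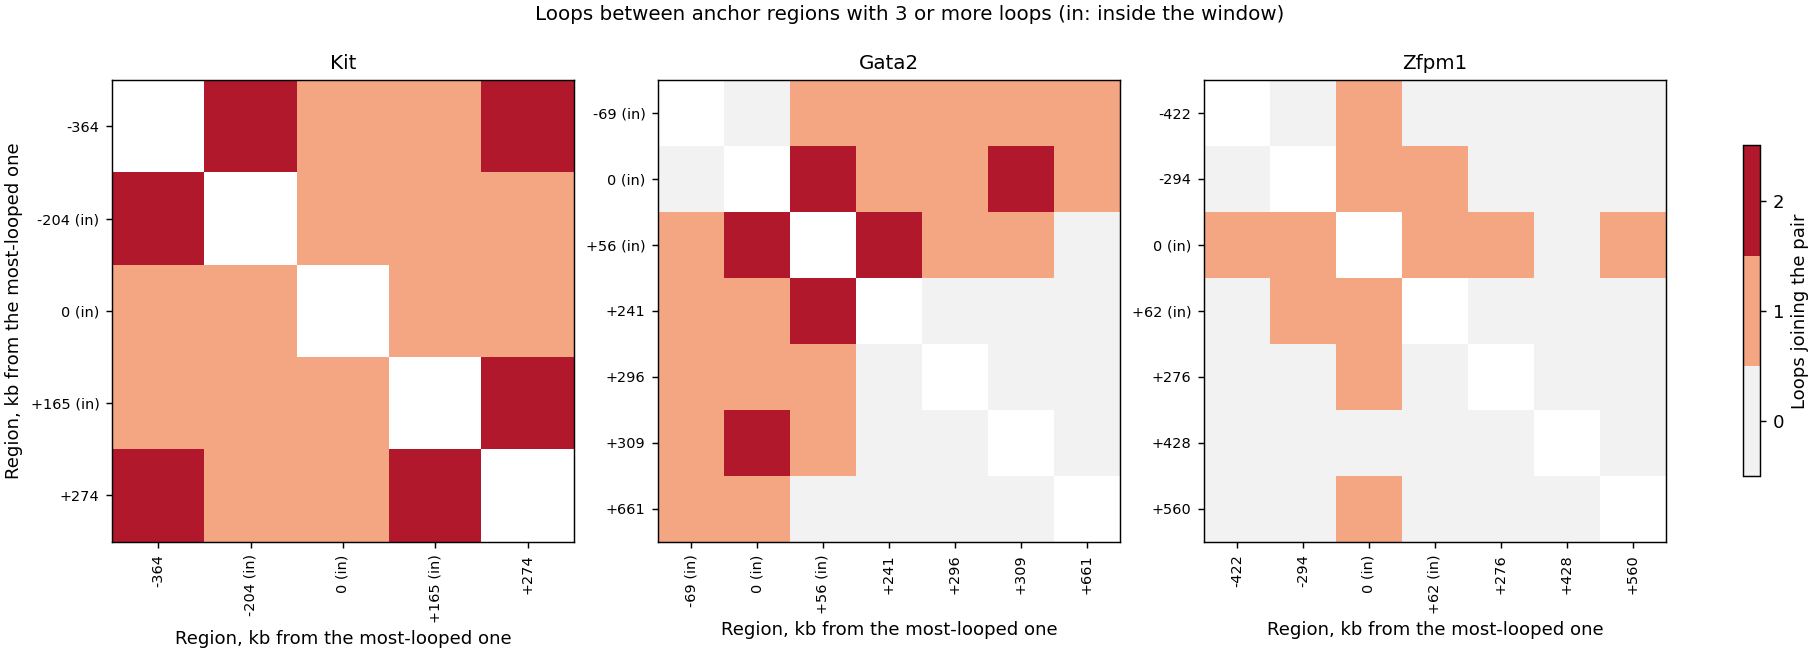
Number of loops that join each pair of anchor regions with 3 or more loops, with regions in order of position and labelled by their distance (kb) from the most-looped region of the window. At Kit all 10 pairs are joined, at Gata2 13 of 21 pairs in an off-diagonal block, and at Zfpm1 6 of 21 pairs, 5 of them along the row of 1 region.

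At Zfpm1 the loops formed a star. The region chr8:124787501-124807500 had 8 loops to 8 different regions, 2 to lower and 6 to higher coordinates, with spans of 60 to 560 kb. Regions with at least as many loops made up 1.08% of the list. With identical anchors only, the most-looped anchor of the window had 3 loops. With anchors within 10 kb merged, the most-looped region held 15 loop anchors. The loop of 60 kb was counted there at both of its anchors, so the region had fewer loops than that. The region next in number of loops in the window, chr8:124850001-124868000, had 4 loops and lay 61.5 kb away. Among the 7 regions of the locus with 3 or more loops, 6 of 21 pairs were joined, and 5 of these 6 included the region with 8 loops.

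Short loops closed the inside of the Zfpm1 window. Loops of 60, 96 and 30 kb joined chr8:124787501-124807500, chr8:124850001-124868000 and chr8:124888001-124898000 to each other over an extent of 95.5 kb. This closed group of 3 lay wholly inside the window. Of all loops, 2.57% were shorter than the loop of 30 kb. Another closed group joined the first of these pairs to chr8:124497501-124510000 by loops of 290 and 350 kb. The third joined chr8:124787501-124807500 to chr8:124957501-124967500 over 160 kb and to chr8:125067501-125080000 over 280 kb.

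The other arms of the Zfpm1 star were not closed. Loops of 420, 190 and 560 kb led from chr8:124787501-124807500 to chr8:124370001-124380000, chr8:124982501-124992500 and chr8:125347501-125367500. A loop of 170 kb led from chr8:124850001-124868000 to chr8:124682001-124692000. Beside the star ran 3 loops of similar length. Their left anchors, chr8:124810001-124820000, chr8:124830001-124840000 and chr8:124840001-124850000, lay between the regions with 8 and 4 loops. The first and second, of 410 and 390 kb, ended at chr8:125220001-125230000. The third, also of 390 kb, ended at chr8:125230001-125240000 and shared no anchor with any loop, since its anchors touched those of its neighbours without overlap. All 3 had coordinates at multiples of 10 kb.

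The other 13 Zfpm1 loops belonged to a network of 54 regions and 74 loops that reached from 119440001 to 125817500 on chromosome 8. Of the 3826 networks of the list, 6 (0.157%) were at least as large. That size rested on merging overlapping anchors: with identical anchors only, the largest network at Zfpm1 had 7 regions. The Kit and Gata2 networks, with 8 and 19 regions, extended over 657.5 and 1208 kb. With identical anchors only, they had 8 and 14 regions, more than at Zfpm1. With anchors within 10 kb merged, the largest networks had 41 regions at Zfpm1, 53 at Gata2 and 19 at Kit. The Zfpm1 network was thus the largest of these only with overlapping anchors merged.

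Domains at Zfpm1 overlapped each other, and not all of them surrounded the star. Of 6 domains, the largest, chr8:124345001-125375000 of 1030 kb, held all 14 loops. The smallest, chr8:124775001-124990000 of 215 kb, held 5 loops, among them the 3 short ones. The domains chr8:124345001-124995000 of 650 kb and chr8:124780001-125125000 of 345 kb held 9 and 6 loops of the window, and overlapped only in part. The domains chr8:124345001-124775000 of 430 kb and chr8:124475001-124780000 of 305 kb ended below the region with 8 loops. They held 0 loops of the window. Domains ended and began at 124775000 and 124780000, which lay 22.5 and 17.5 kb below the midpoint of the region with 8 loops, and 4 loops of the window spanned each of these boundaries. Of the 14 loops, 10 spanned at least 1 boundary (71.4%, 95% exact interval 41.9 to 91.6%). None was a corner loop, and no listed loop was at the corner of any of the 6 domains.

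The intervals of the median span overlapped between the 3 loci. The median span was 200 kb at Kit (95% order-statistic interval 150 to 360 kb), 250 kb at Gata2 (180 to 365 kb) and 285 kb at Zfpm1 (96 to 410 kb). The median of the whole list was 175 kb. Spans ran from 100 to 1425 kb at Kit, from 54 to 725 kb at Gata2 and from 30 to 560 kb at Zfpm1. Spans depend on the grid on which a loop was listed, that is, on whether its anchors start at steps of 2, 5 or 10 kb. In the whole list the medians were 78, 195 and 280 kb on these grids. Kit had 1, 9 and 5 loops on them, Gata2 1, 18 and 2, and Zfpm1 4, 3 and 7. On the 5 kb grid, which held most loops of Kit and Gata2, their medians were 200 and 275 kb. At Zfpm1 the medians were 78, 190 and 390 kb on the 2, 5 and 10 kb grids. Without the loops of the 10 kb grid the medians were 181 kb at Kit, 250 kb at Gata2 and 160 kb at Zfpm1, which was then the shortest. The part of the grids in the difference between loci was not tested.

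**Figure D4:**
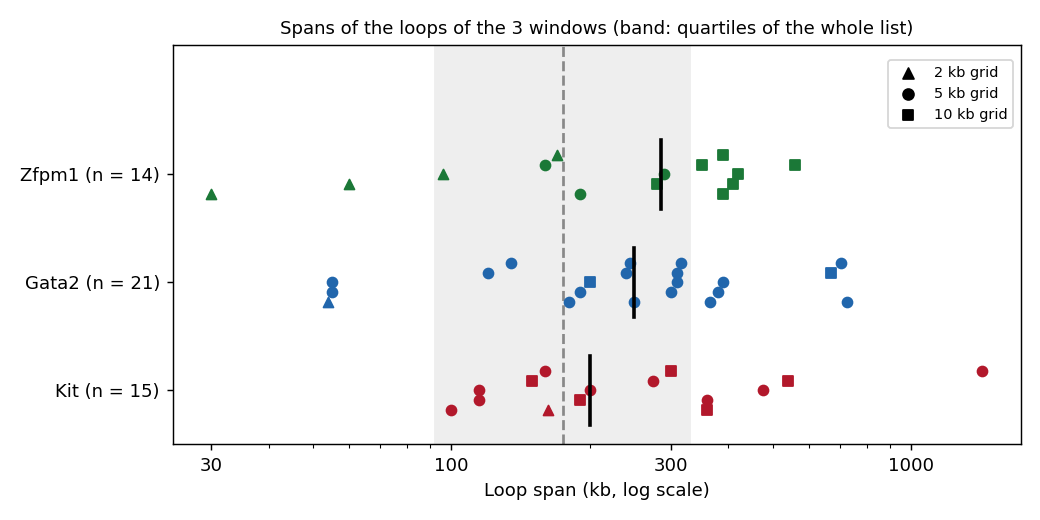
Spans (kb, log axis) of the loops of each window, with the marker giving the coordinate grid, a black bar at the median of each locus, a grey band between the quartiles of the whole list at 92 and 330 kb and a dashed line at its median of 175 kb. Medians of 200, 250 and 285 kb lie inside the band at all 3 loci, and the longest loop, at Kit, spans 1425 kb.

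The share of loops in closed groups of 3 was above that of the whole list at each locus. A loop is in a closed group if the regions it joins have a partner region in common. This held for 11 of 15 loops at Kit (73.3%, 95% exact interval 44.9 to 92.2%), 14 of 21 at Gata2 (66.7%, 43.0 to 85.4%) and 7 of 14 at Zfpm1 (50%, 23.0 to 77.0%). It held for 6850 of the 20926 loops of the list (32.7%), which lies below the first and second interval and inside the third. With identical anchors only, the shares were 33.3% at Kit, 14.3% at Gata2 and 0% at Zfpm1, and 3.31% in the list, so that Zfpm1 was no longer above it. With anchors within 10 kb merged, they were 73.3, 71.4 and 64.3%, and 50.5% in the list, which lies inside all 3 of the intervals given above. No test of this difference was made, since the loops of a locus are not independent. Sharing of an anchor with another loop was near that of the list at each locus: 14 of 15, 20 of 21 and 13 of 14 loops, compared with 91.0% of all loops.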

How the data were processed

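Micro-C cuts chromatin with micrococcal nuclease and ligates DNA ends that lie close together, and per the labels' protocols fragments of dinucleosome size were sequenced. The authors deposited a loop list and a domain list, each covering the series as a whole, with coordinates in bp as their only values. The build is mm9, per the submitters' processing notes. The callers, their resolutions and thresholds and the samples pooled are not given in the sources used here, and the depth per sample is unknown. Starts were read as counted from 0 and are printed from 1. Calculations used Python 3.11.15 with numpy 2.4.6 and scipy 1.17.1, and figures matplotlib 3.10.9. Functions were tested on simulated lists.

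Anchors that overlapped by at least 1 bp were merged over the whole list. Regions linked by loops, directly or through others, formed a network. Tiles ran from the first base to the last listed coordinate of each chromosome. Exact binomial and order-statistic intervals were at 95%. No chance test was run. Named were regions with 3 or more loops, the shortest and longest loop and every domain of a window. The other loops, the groups all joined and the common partners were named after their values were seen. The loci and lists were chosen with earlier results of these data known.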

Additional observations from a re-analysis of the deposited data

How the results depend on the processing

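Of 90 alternative values for 30 results, 57 stayed within 1.5 times the count or inside the interval of the value reported and 33 moved; the alternatives for closed groups were chosen after seeing the data. For each moved value the alternative's own construction (fewer loops, domains or shared anchors, or wider merging) is the change made, and its cause was not tested further. Asking for both anchors in the window left 4 loops at Kit, 3 at Gata2 and 3 at Zfpm1, with median spans of 55 kb at Gata2 and 60 kb at Zfpm1. Without the 10 kb grid, 7 Zfpm1 loops were left, and the largest group all joined at Kit had 4 regions, 1 fewer than reported. With identical anchors only, 46.7% of Kit loops shared an anchor. The most-looped region then had 5 loops at Gata2 and 3 at Zfpm1, and the largest Zfpm1 network 7 regions. The largest group all joined then had 3 regions at Kit and 0 at Zfpm1, and loops in closed groups of 3 were 33.3% at Kit, 14.3% at Gata2 and 0% at Zfpm1. With anchors within 10 kb counted as shared, 100% of Gata2 and of Zfpm1 loops shared an anchor. Merging anchors within 10 kb gave networks of 19 regions at Kit and 53 at Gata2. It gave 15 loop anchors at the most-looped Zfpm1 region, with both anchors of the loop of 60 kb counted. Domains wholly in the window numbered 1 at Kit, 0 at Gata2 and 0 at Zfpm1. Domains holding no other numbered 2 at Gata2 and 3 at Zfpm1, and domains inside no other 3 at Kit, 1 at Gata2 and 1 at Zfpm1. Inside a domain that holds no other lay 81.0% of Gata2 and 35.7% of Zfpm1 loops. With each contact counted once, the share of tiles with fewer loops was 88.1% for Kit, 99.4% for Gata2 and 99.4% for Zfpm1, against 89.1, 99.6 and 99.1%. These small shifts were counted as moved, although no interval for the tile shares is printed here.

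No paired analysis was possible because neither deposited list separates its samples. The comparison of untreated and auxin-treated cells, and leaving out samples in turn, could not be run for the same reason. Loops at gene starts were not counted because no mm9 annotation was used here. An absent loop says only that a contact is not in the list, since depth and calling thresholds are unknown.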
